A study of Mus musculus with 39 samples.

Results

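The genes described here are those whose mean signal in normal bone marrow B-cell development was highest at the pre-B stage by the widest margin. For each of 12393 genes with a single symbol, the mean log2 intensity of the pre-B arrays was set against the highest of the pro-B, immature B and mature B means, and the 100 genes with the largest difference were kept. Reln, Gpr12, Rag1, Rag2, Il2ra and Steap4 were left out, of which 5 lay within the 100 and Reln at rank 191. Their places were not refilled, so 95 genes remained. The pre-B margin chose these genes, so it is given below as a description, with no test.

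Mouse bone marrow cells were sorted by B220, CD43, IgM and IgD and their RNA was hybridised to Affymetrix arrays. B220 was required in every gate. The normal cells came from adult mice and gave 6 arrays of pro-B cells (CD43+, negative for IgM and IgD), 8 of pre-B cells (CD43-, negative for IgM and IgD), 6 of immature B cells (CD43- IgM+ IgD-) and 3 of mature B cells (CD43- IgM+ IgD+). A further 16 arrays held leukemic cells taken from the marrow through the pre-B gate, and the series title names them MLL-AF4 lymphoblasts. The description of 5 of these (A992, A1322, A1507, 270 and A46) gives pIpC, a double-stranded RNA analogue, before leukemia, and that of the other 11 does not. Array 116 is labelled leukemic, but its description names pre-B cells of an Mll-AF4stop knock-in mouse and states no leukemia. The allele of the other leukemic mice is taken from the series title alone. The strain, the treatment of the normal mice and any driver of recombination were not given in the sources used here. Nothing states that the normal arrays came from separate animals. The p-values below therefore reflect differences among arrays, part of which may be technical.

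Pre-B cells carry a rearranged immunoglobulin heavy chain paired with the surrogate light chain. Signalling through this pre-B-cell receptor, together with IL-7, drives a burst of division of large pre-B cells, after which small pre-B cells leave the cell cycle and rearrange their light chain genes. The sources used here do not give the shares of large and small pre-B cells in the CD43- gate. In leukemias with an MLL-AF4 fusion, B-lineage development is arrested at an early stage.

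By what they are known for, 18 of the 95 genes encode receptors, ligands and signal adaptors, 11 act in chromatin, transcription and repair, and 10 in metabolism. Adhesion, the cytoskeleton, and mitosis and division hold 9 each, while histones, survival and stress, ubiquitin and SUMO, and secreted enzymes and matrix hold 6 each. Another 3 are channels and transporters and 2 stand apart. Promoters of histone and mitosis genes are known for CCAAT boxes close to the start site, a motif added to the search once these groups were seen among the genes. The 150 bases before the start site are therefore shown for 4 histone genes and 2 mitosis genes, from RefSeq promoters on GRCm38.p6, 5′ to 3′ on the gene's strand. Capitals mark CCAAT (or ATTGG on the other strand), TTTGAA (or TTCAAA), known as a cell-cycle homology region, and TATAAA (or TTTATA).
H3c4, chr13:23575613-23575762, plus strand: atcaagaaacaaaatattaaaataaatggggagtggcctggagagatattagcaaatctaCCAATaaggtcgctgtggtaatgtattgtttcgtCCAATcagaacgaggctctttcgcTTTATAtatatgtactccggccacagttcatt
H1f2, chr13:23738657-23738806, plus strand: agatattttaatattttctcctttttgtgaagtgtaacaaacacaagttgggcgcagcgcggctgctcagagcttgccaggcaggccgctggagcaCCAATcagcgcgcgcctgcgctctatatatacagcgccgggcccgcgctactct
H2bc22, chr13:21787338-21787487, plus strand: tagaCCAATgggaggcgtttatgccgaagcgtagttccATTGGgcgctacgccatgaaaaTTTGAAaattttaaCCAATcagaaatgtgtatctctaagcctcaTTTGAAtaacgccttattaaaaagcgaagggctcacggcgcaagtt
H2az2, chr11:6444444-6444593, minus strand: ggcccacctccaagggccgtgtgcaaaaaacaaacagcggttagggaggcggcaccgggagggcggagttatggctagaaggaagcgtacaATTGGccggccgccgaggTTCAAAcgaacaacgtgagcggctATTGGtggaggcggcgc
Gpsm2, chr3:108722300-108722449, minus strand: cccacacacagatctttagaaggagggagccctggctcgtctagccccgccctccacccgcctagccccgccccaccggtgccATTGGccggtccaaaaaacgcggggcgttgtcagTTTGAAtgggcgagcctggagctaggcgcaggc
Spag5, chr11:78301441-78301590, plus strand: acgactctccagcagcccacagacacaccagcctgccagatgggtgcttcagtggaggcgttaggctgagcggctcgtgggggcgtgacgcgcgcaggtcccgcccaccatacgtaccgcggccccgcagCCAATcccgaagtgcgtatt

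CCAAT or ATTGG stood in all 4 histone promoters that could be matched and in 7 of 10 mitosis promoters. Psrc1 and Gtse1 enter the 10 with alternative starts, and those of Psrc1 share a CCAAT box. The 7 were counted over the longer window given below. In the 150 bases before the start, Kif2c, Cenpv, Lrr1 and 1 of the starts of Gtse1, not shown above, had none. The shares with CCAAT or ATTGG were 42.3% of the 111 promoters of the 79 matched genes and 37.4% of all 32851 promoters in the reference. Each promoter was searched over 250 bases before to 50 after the start on both strands. H3c4, a replication-dependent histone H3, has CCAAT at 56 and 90 bases before its start, and the linker histone gene H1f2 has it at 54. CAGGTG (or CACCTG), the E box bound by E2A, stood in 8.11% of the promoters of these genes and in 20.2% of all promoters. The other motifs searched were GTAAACA for FOXO (2.7% against 3.65%), TTCNNNGAA for STAT5 (3.6% against 8.3%), CCCNNGGG for EBF1 (17.1% against 13.7%), TGGGAA for Ikaros (19.8% against 25.6%), the ETS-IRF composite element (1.8% against 2.72%), ATGCAAAT, the octamer (0.901% against 1.74%), TTTGAA (12.6% against 17.9%) and TATAAA (12.6% against 13.6%). Each was read on both strands. The octamer, TTTGAA and TATAAA were, like CCAAT, added to the motifs first planned. A match is a description of the letters and says nothing of binding, and CAGGTG was the motif whose share lay furthest below that of all promoters.

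Before the values, some arrays stood apart. The mean of the 95 genes was 7.53 to 7.72 on pro-B arrays 1, 3 and 5 and 6.94 to 7.01 on pro-B arrays 2, 4 and 6. The latter had the higher mean of 16 T and NK cell genes (8.93 to 9.23, against 7.58 to 7.98 on arrays 1, 3 and 5, and 5.66 to 6.16 on the pre-B arrays). They were also higher for 11 plasmacytoid dendritic cell genes (10.2 to 10.6 against 8.9 to 9.36) and lower for 33 cell-cycle genes (9.42 to 9.67 against 10.27 to 10.63). No label separates these arrays, and the part of other cells in the pro-B mean was not tested. With pro-B arrays 1, 3 and 5 alone, 59 of the 95 genes were still among those chosen, 94 still had a pre-B margin above 0 and the median margin was 0.778. In bulk samples such as these, fewer cells of a type and less RNA per cell cannot be told apart.

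The sorted stages otherwise carried their markers. A list of 9 pro-B genes, among them Kit, Flt3 and Dntt, averaged 9.51 on the pro-B arrays and 7.78 on the pre-B arrays, and 14 genes of IgM-positive B cells, such as Ms4a1 and Cd22, averaged 8.76 in pre-B, 10.57 in immature and 11.51 in mature B cells. Markers of the 17-gene neutrophil and monocyte list were present in every sort, at 8.17 on average in pre-B and 9.30 to 9.46 in the other normal stages, and at 6.67 in leukemic cells (4.95 to 9.11). Pre-B was the highest stage for 0 of these 17 genes, 0 of the 16 T and NK genes, 0 of the 11 plasmacytoid dendritic genes and 0 of 9 erythroid genes. It was the highest for 1 of 14 eosinophil, basophil and mast cell genes (Prg3), 2 of 8 plasma cell genes (Sdc1 and Irf4) and 1 of 10 stromal and endothelial genes (Kitl). Over all genes the share was 31.4%. The accessions form 2 runs, of 22 and 17 arrays, that no label explains, and all mature B arrays lie in the second. The pre-B margin was above 0 in both runs for 95 of 95 genes, with a median of 1.03 in the first, which lacks mature B, and 0.915 in the second. Arrays of both runs entered the choice of genes. These values therefore describe the genes and are no test of the margin in each run.

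**Figure D1:**
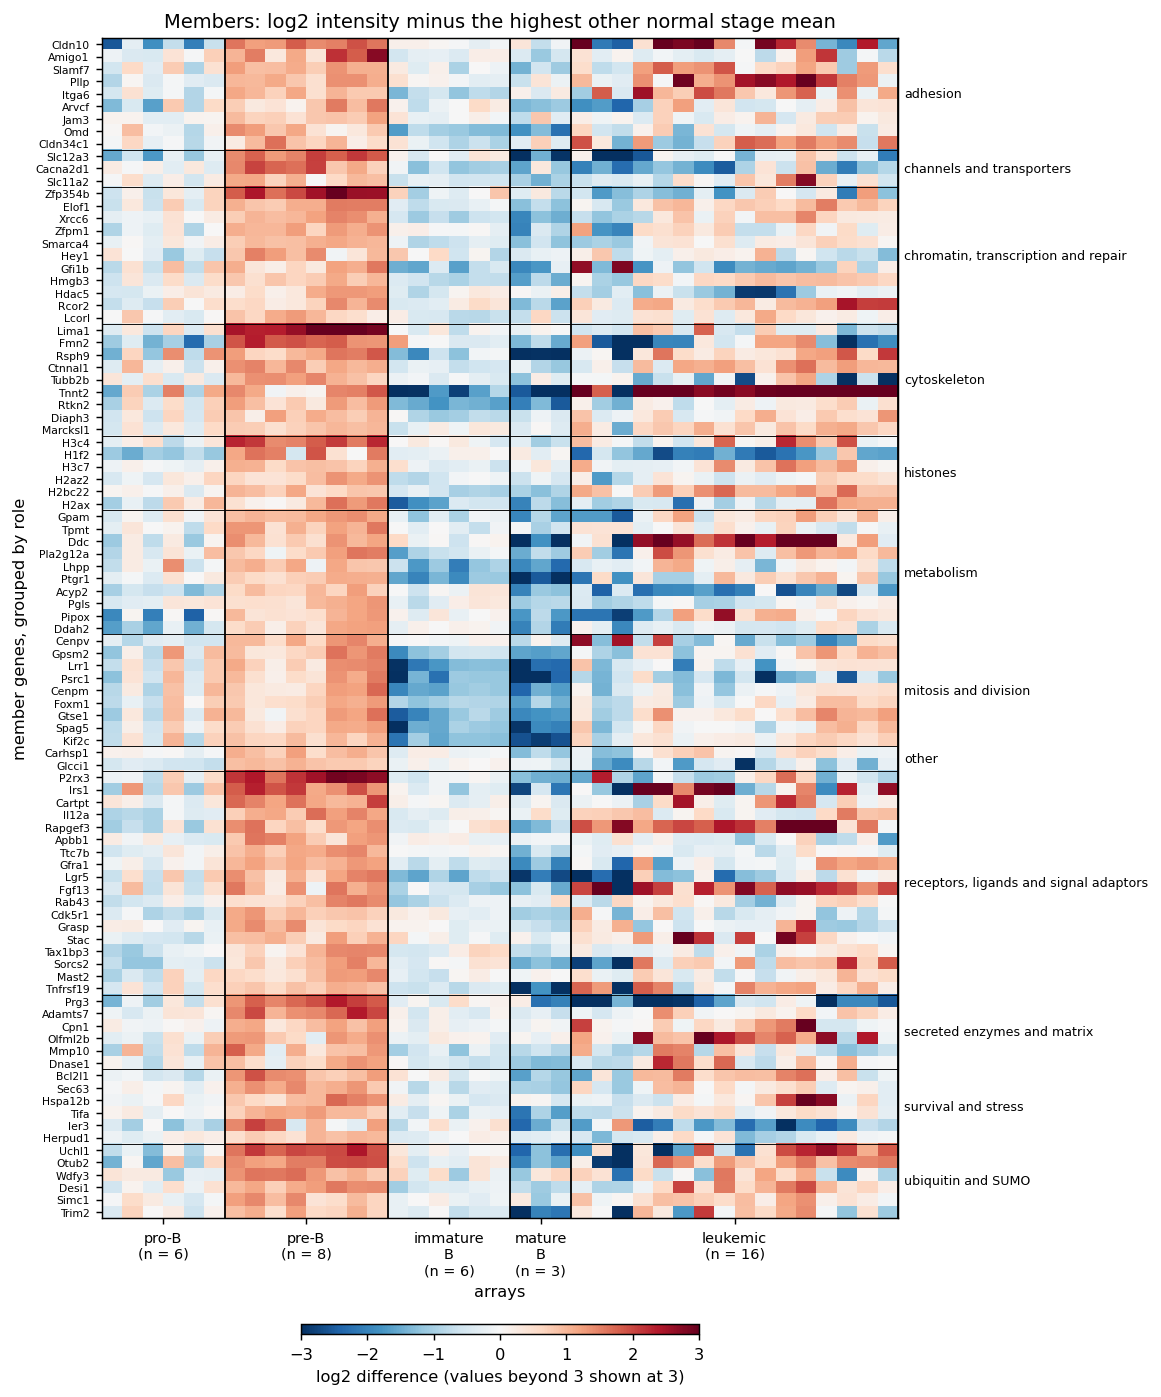
Log2 intensity of each of the 95 genes on each of the 39 arrays, minus that gene's highest mean among the pro-B, immature B and mature B arrays (red higher, blue lower, values beyond 3 shown at 3), with genes in rows by role and arrays in columns by group. Red fills the 8 pre-B columns by the choice of genes, while the 16 leukemic columns are mixed, with single genes red on some arrays and blue on others.

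The pre-B margin ran from 0.764 to 2.77 on the log2 scale, with a median of 0.927, and exceeded 1 for 37 genes. The stage nearest below was pro-B for 56 genes, immature B for 30 and mature B for 9. For 42 genes all 8 pre-B arrays lay above every other normal array, and this held for 0.613% of all genes. The same normal arrays chose the genes by their pre-B margin, which favours such separation. The count is therefore a description, and its excess over the share of all genes is no test. Pre-B was the highest of the 4 stages for 31.4% of all genes. At the lower edge, Cldn34c1 (0.767), Ddah2 (0.767) and Dnase1 (0.764) lay just inside and F5 (0.743), Eps8 (0.742) and Frat2 (0.740) just outside. By their mean over all 39 arrays, 13 genes lay among the dimmest 40% of all genes, below 5.65. Their margins rest in part on weak signals, although the pre-B mean itself could be higher, as for Zfp354b (7.17).

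Lima1, which cross-links actin filaments, had the widest margin, 2.77, or 6.80-fold. Its log2 intensity was 9.55, 9.97 and 10.52 (lowest, median and highest) on the pre-B arrays, 6.60, 7.19 and 7.89 in pro-B, 6.46, 7.18 and 7.58 in immature B, and 7.004, 7.33 and 7.22 on the 3 mature B arrays. The leukemic arrays read 5.89, 6.79 and 9.01. The pre-B arrays did not overlap any other group, and the leukemic median lay below those of the other normal stages. Lima1 was lower in leukemic than in pre-B cells by 2.90 (SE 0.29, 7.47-fold, limma adjusted p = 1.08e-07), on all 16 leukemic arrays. Its other 2 probe sets gave margins of 2.05 and 3.01.

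The comparison of leukemic with normal pre-B cells, both taken through the same gate, asks how much of this stage's expression the lymphoblasts keep. Of the 95 genes, 50 were lower in leukemic cells at a limma adjusted p under 0.05 (52.6%, against 7.53% of all genes), 1 was higher (1.05%, against 8.5%), and 44 were not called. The difference was negative for 85 genes, with a median of -0.93 for the 95 genes and -0.0069 over all genes. The pre-B arrays that chose the genes also entered this test, which favours falls, so the comparison on other arrays below is the one to set beside the background. Within the first accession run 28 of the 95 genes were lower, against 3.1% of all genes in the same test. The 3′ minus 5′ signal of Gapdh, a sign of RNA quality, averaged 1.15 on the pre-B and 0.973 on the leukemic arrays (beta-actin 1.07 and 1.20), and its part in the differences was not tested.

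Where the leukemic mean lay between the nearest normal stage (0%) and pre-B (100%) was also described for each gene. At or below the nearest stage lay 41 genes, 31 more lay below the midpoint, 13 between the midpoint and the pre-B mean, and 10 at or above the pre-B mean. The median position was 4.67%. The normal means that set this scale also chose the genes, which favours low positions. The positions are therefore a description, with no test. The 10 at or above were Tnnt2, Ddc, Fgf13, Rapgef3, Olfml2b, Pllp, H2bc22, Rcor2, Stac and Itga6. No gene had all 16 leukemic arrays above its midpoint. The 7 with none above it were Prg3, Slc12a3, Ttc7b, Glcci1, Acyp2, Pgls and Hdac5.

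**Figure D2:**
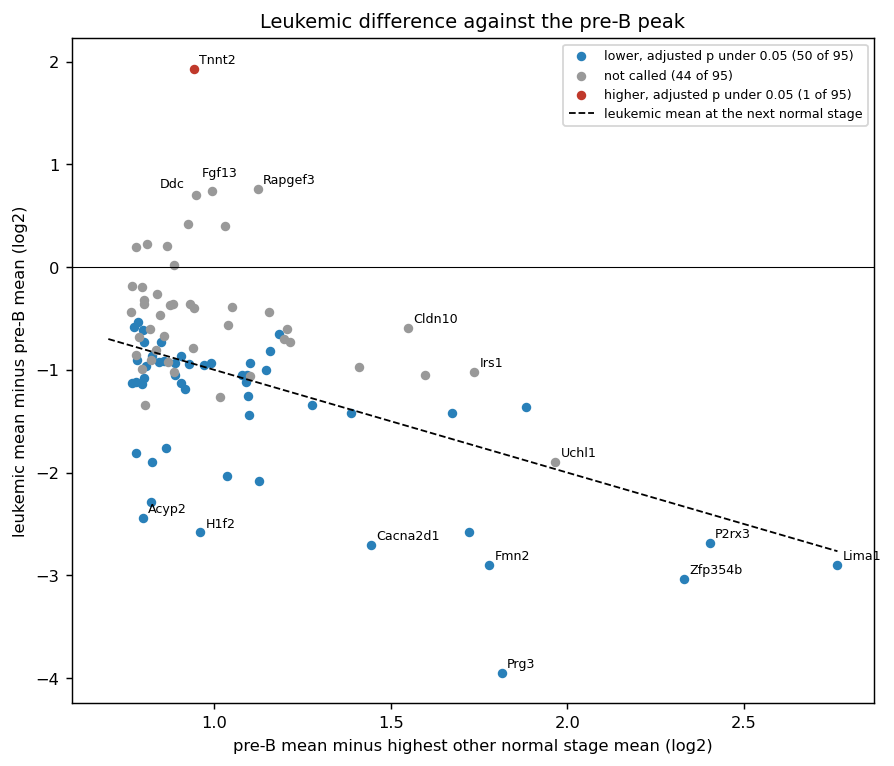
Leukemic minus pre-B mean (log2, y axis) against the pre-B margin over the next normal stage (log2, x axis), 1 point per gene, blue lower (50), red higher (1) and grey not called (44). On the dashed line the leukemic mean equals the next normal stage; 41 genes lie on or below it, Prg3 furthest below, and Tnnt2 stands alone at the top.

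Among the receptors, ligands and signal adaptors, 10 of 18 were lower in leukemic cells and none higher, with a median difference of -0.93. The pre-B arrays that chose the genes also entered this test, which favours falls in this and every later role group. The shares of all genes were 7.53% lower and 8.5% higher, and 52.6% of the chosen genes were lower. The counts by role are therefore descriptions, and whether any role differed from the rest was not tested. P2rx3, an ATP-gated cation channel best known from sensory neurons, read 7.19, 8.04 and 8.48 (lowest, median, highest) in pre-B cells. It read 4.82, 5.46 and 6.34 in pro-B and 4.98, 5.44 and 5.64 in immature B cells. The 3 mature B arrays, in order of their numbers, read 4.34, 4.15 and 4.12. Here and below, mature B values are those of the 3 arrays in this order. Other triples of intensities are lowest, median and highest. Leukemic cells read 4.01, 4.97 and 7.96. No other normal array reached the pre-B range, while leukemic arrays 117 (7.96) and 227 (7.27) did. The difference of -2.69 (SE 0.40) passed the test (limma adjusted p = 2.59e-05).

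Irs1, the adaptor that couples insulin and IGF-1 receptors to PI3-kinase, split the leukemic arrays. It read 8.004, 8.72 and 9.22 in pre-B, 5.77, 6.86 and 8.17 in pro-B and 5.69, 6.54 and 6.99 in immature B cells, with 4.12, 6.37 and 4.70 on the mature B arrays. The leukemic values ran from 3.35 on array 122 to 10.35 on array 153, with a median of 7.65. On 8 leukemic arrays Irs1 lay below every pre-B array and on 5 above every one, so the mean difference of -1.02 (SE 0.72, limma adjusted p = 0.409) describes few of them.

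Rapgef3 (Epac1), a cAMP-activated exchange factor for Rap GTPases, was kept. It read 6.18, 6.89 and 7.28 in pre-B, 4.53, 4.82 and 6.11 in pro-B, 5.19, 5.53 and 6.25 in immature B and 4.05, 4.32 and 4.96 in mature B cells. On the leukemic arrays it read 5.59, 7.50 and 8.89, above the midpoint on 14 of 16 and above every pre-B array on 10. The difference of 0.76 (SE 0.33) did not pass (limma adjusted p = 0.133), but passed without leukemic array 17 (0.89, adjusted p = 0.040). Within the second run it was 0.17 (adjusted p = 0.918). Rapgef3 was higher than in pro-B cells by 2.37 in the same kind of test.

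Fgf13, an FGF-family protein that stays inside the cell and binds sodium channels, read 7.10, 8.45 and 8.85 in pre-B and 6.53, 7.22 and 8.21 in pro-B cells, with 6.11, 6.52 and 7.26 in immature and 6.01, 6.79 and 5.74 in mature B cells. Leukemic arrays read 3.45, 9.29 and 10.51, and 12 of 16 lay above every pre-B array. The lowest was array 122, and the difference of 0.74 (limma adjusted p = 0.450) was 1.11 without it (adjusted p = 0.006) and turned to -0.26 with the neutrophil and monocyte mean as a covariate (adjusted p = 0.802). With pro-B arrays 1, 3 and 5 alone Fgf13 was no longer among the genes chosen.

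Of the other receptors, Lgr5, the R-spondin receptor that marks intestinal stem cells, fell by 2.03 (limma adjusted p = 0.0024), from 6.94, 7.79 and 8.25 in pre-B to 3.15, 5.74 and 7.39 in leukemic cells. Gfra1, the GDNF co-receptor, fell by 1.05 (limma adjusted p = 0.047) over a leukemic range of 4.80 to 8.53. The direction of Gfra1 differed between the accession runs: it was -1.42 within the first (adjusted p = 0.055) and 0.12 within the second (adjusted p = 0.691), where the 4 leukemic arrays read 8.31 to 8.53 and the 4 pre-B arrays 8.09 to 8.48. Ttc7b, a part of the complex that holds phosphatidylinositol 4-kinase at the plasma membrane, had the smallest leukemic spread of the 95 genes (SD 0.29), and all 16 arrays (7.14 to 8.49) lay below the lowest pre-B array (8.66). Il12a, the p35 subunit of IL-12, fell by 0.82 (limma adjusted p = 0.016), yet remained above pro-B by 0.92. Tnfrsf19 had a leukemic median of 10.35, near its pre-B median of 10.14, but a lowest value of 5.81. Cartpt and Stac were dim in normal cells, with pre-B means of 5.24 and 4.77, and Stac reached 9.38 on 1 leukemic array.

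In the channels and transporters, Slc12a3 and Cacna2d1 fell and Slc11a2 was not called. Slc12a3, the thiazide-sensitive sodium chloride cotransporter of the kidney, read 8.89, 9.40 and 9.73 in pre-B, 5.91, 6.75 and 7.40 in pro-B, 7.15, 7.69 and 8.03 in immature B, and 4.50, 6.19 and 4.69 in mature B cells. In leukemic cells it read 3.53, 7.38 and 8.45, all below the lowest pre-B array, and the difference was -2.58 (SE 0.48, limma adjusted p = 3.28e-04). Cacna2d1, an auxiliary subunit of voltage-gated calcium channels, read 7.24, 8.08 and 8.60 in pre-B, 6.16, 6.61 and 6.86 in pro-B and 5.28, 5.53 and 6.44 in immature B cells, with 4.97, 6.85 and 5.42 on the mature B arrays. Leukemic cells read 4.04, 5.12 and 7.42 and were lower by 2.71 (SE 0.34, limma adjusted p = 2.12e-06). Both genes ended below the nearest normal stage, at positions of -50.0% and -87.4%, and Cacna2d1 was also lower than in pro-B cells, by 1.26.

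Of the 9 cytoskeleton genes, 4 fell and 1 rose in leukemic cells, and pro-B was the nearest normal stage for 8. Fmn2, a formin that nucleates actin filaments, read 8.59, 9.09 and 9.60 in pre-B, 4.94, 6.22 and 6.88 in pro-B and 6.82, 7.07 and 8.51 in immature B cells, with 5.90, 6.48 and 5.74 in mature B cells. Leukemic arrays spread from 3.44 to 8.67 around a median of 5.68. Array 228 (8.67) reached the pre-B range, arrays 226, 227 and 116 (8.44 to 8.49) lay just under it, and most others lay at or below the immature B values. The difference was -2.90 (SE 0.61, limma adjusted p = 0.0014), but it did not pass within the first accession run (-2.73, adjusted p = 0.069). Tubb2b, a beta-tubulin, fell by 2.08 (limma adjusted p = 0.014).

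Tnnt2, cardiac troponin T, was the gene that rose. It read 6.06, 7.46 and 8.04 in pre-B and 4.62, 6.09 and 7.68 in pro-B cells, with 2.90, 3.92 and 5.31 in immature B and 3.64, 3.13 and 2.68 in mature B cells. Leukemic arrays read 3.10, 9.44 and 10.30, and 14 of 16 lay above every pre-B array. Array 122 (3.10) stood at the level of the IgM-positive stages. The difference was 1.93 (SE 0.59, 3.81-fold, limma adjusted p = 0.024). The call was lost without pre-B array 1, 7 or 8 (adjusted p = 0.0570, 0.0579 and 0.0540), within the first run (1.95, adjusted p = 0.223) and with the neutrophil and monocyte mean as a covariate (0.96, adjusted p = 0.331), and over pro-B arrays 1, 3 and 5 Tnnt2 had no pre-B margin (-0.197). Without leukemic arrays 116, 117 and 122 it was 2.45 (adjusted p = 3.44e-07).

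**Figure D3:**
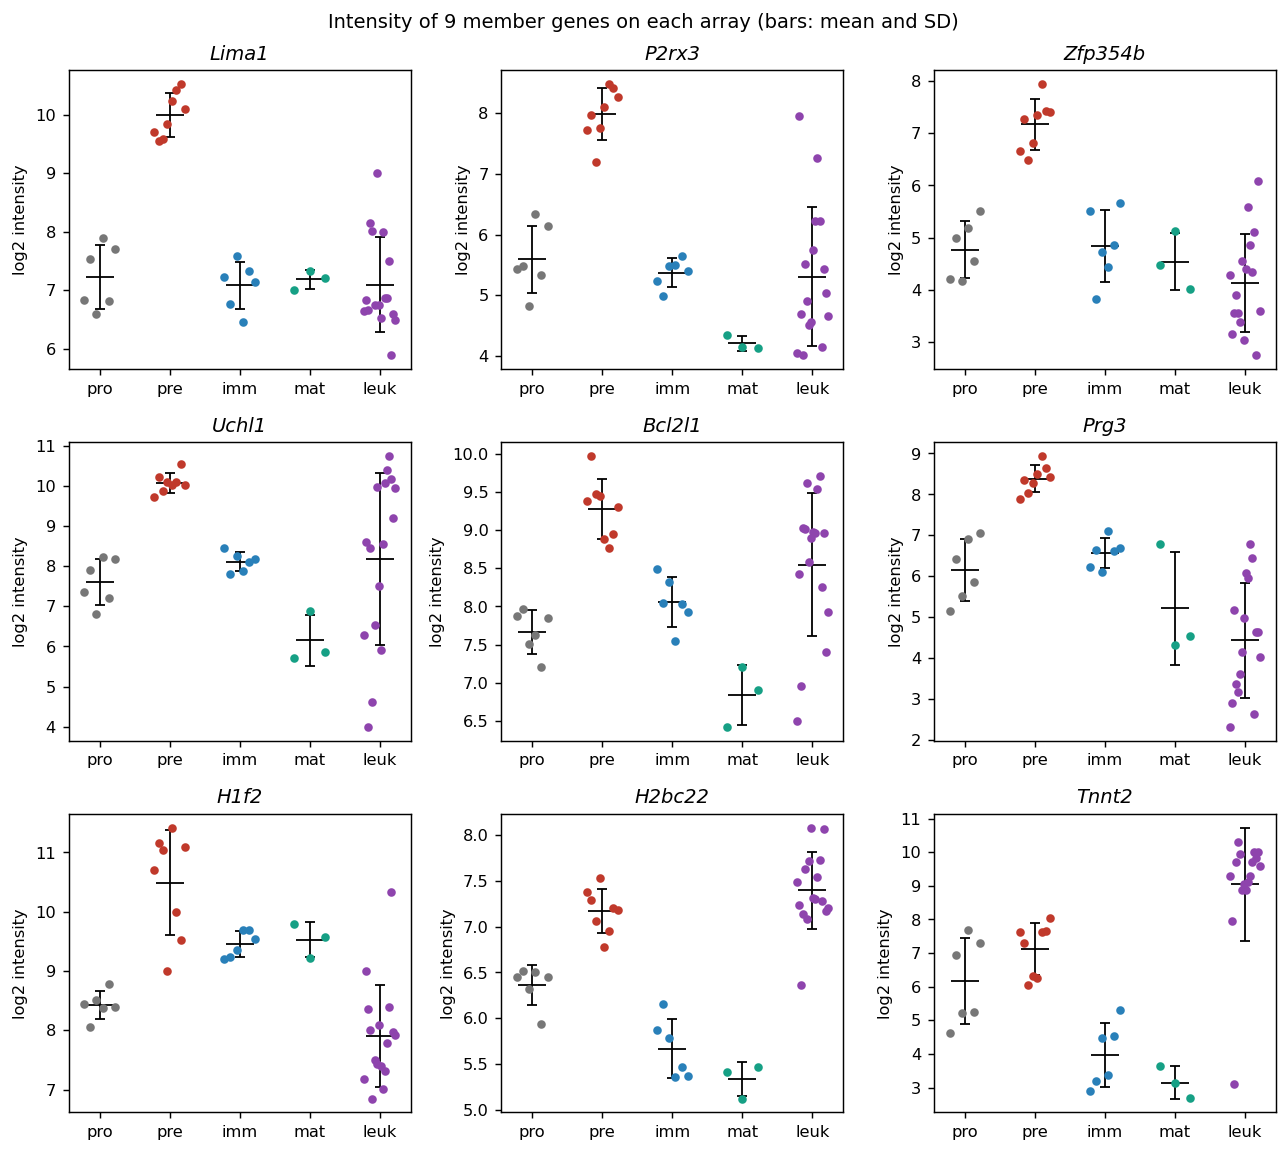
Log2 intensity per array (points) with group mean and SD (bars) for 9 of the genes in pro-B, pre-B, immature B (imm), mature B (mat) and leukemic (leuk) cells. Lima1, Zfp354b and Prg3 lie below every pre-B array on all 16 leukemic arrays, Uchl1 is spread from 3.99 to 10.75, and Tnnt2 lies above the pre-B arrays on 14.

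Of the 6 histone genes, 3 fell in leukemic cells and none rose. The replication-dependent histones H3c4, H1f2, H2bc22 and H3c7 belong to families of near-identical copies, so their probe sets may read several genes and these values are uncertain. H3c4 read 6.93, 7.47 and 7.79 in pre-B, 4.72, 5.52 and 6.01 in pro-B, 4.999, 5.53 and 5.80 in immature B, and 5.19, 4.47 and 4.83 in mature B cells, with no overlap. Leukemic arrays read 4.77, 5.71 and 7.77, and the fall of 1.37 (SE 0.32, limma adjusted p = 0.0036) left 4 arrays above the midpoint. It did not pass within either run alone (adjusted p = 0.084 and 0.075).

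H1f2, whose promoter above carries 1 CCAAT box, read 9.002, 10.87 and 11.42 in pre-B, 8.05, 8.42 and 8.78 in pro-B, 9.21, 9.45 and 9.69 in immature B and 9.80, 9.22 and 9.58 in mature B cells. The pre-B arrays overlapped the immature and mature B ones. Leukemic arrays read 6.84, 7.85 and 10.33, most of them below pro-B, with a difference of -2.58 (SE 0.35, limma adjusted p = 7.86e-06). Of its other 2 probe sets, 1 gave a difference of -2.26 and followed the one used over the 39 arrays (r = 0.948), and the other gave -0.42 (r = 0.201, limma adjusted p = 0.248 where it stands for the gene). Within the second run the difference of H1f2 was -1.85 (adjusted p = 0.063). H2bc22, with 3 CCAAT or ATTGG boxes in its promoter, was kept. It read 6.78, 7.19 and 7.53 in pre-B, 5.94, 6.45 and 6.52 in pro-B, 5.36, 5.63 and 6.15 in immature and 5.42, 5.12 and 5.47 in mature B cells, against 6.36, 7.31 and 8.08 in leukemic cells, a difference of 0.22 (SE 0.17, limma adjusted p = 0.456). H2az2, a replication-independent H2A variant, fell by 0.93 (limma adjusted p = 0.0047). H2ax, the variant phosphorylated at DNA breaks, read 8.14, 10.11 and 12.03 in leukemic and 10.42, 11.11 and 12.05 in pre-B cells, and this difference did not pass (adjusted p = 0.065).

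Of the 9 mitosis and division genes, 5 fell in leukemic cells and none rose, with a median difference of -0.79. Foxm1, a transcription factor of G2 and M phase genes, read 8.23, 8.67 and 9.19 in pre-B, 7.12, 7.80 and 8.83 in pro-B, 6.71, 7.01 and 7.06 in immature B and 6.25, 7.06 and 6.47 in mature B cells. Leukemic arrays read 6.85, 8.14 and 8.84, and the fall of 0.73 (SE 0.23, limma adjusted p = 0.032) failed the test when pre-B array 1, 2, 3 or 4 was dropped (adjusted p 0.050 to 0.071) and within either run. Psrc1, a spindle protein, fell by 1.89 (limma adjusted p = 0.00011), from 8.09, 8.70 and 9.50 to 4.90, 6.87 and 8.48. Lrr1 fell by 1.19, Cenpm, a centromere protein, by 0.96, and the kinesin Kif2c by 0.53, each at an adjusted p under 0.05 in limma.

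The spindle genes Spag5, Gpsm2 and Gtse1 did not pass. Gpsm2, which orients the spindle, read 7.98, 8.51 and 9.28 in pre-B and 6.40, 7.90 and 8.98 in leukemic cells. Gtse1 lay above its midpoint on 9 leukemic arrays. The pre-B margin of this group is the one most tied to the pro-B arrays: with pro-B arrays 1, 3 and 5 alone, 1 of 9 genes (Cenpv) was still chosen and the median margin was 0.133. The corresponding counts were 6 of 6 for survival and stress and 14 of 18 for receptors. Over all 33 genes of a cell-cycle list, pre-B was the highest stage for 33 with every pro-B array and for 18 with arrays 1, 3 and 5, and over 26 DNA replication genes for 24 and 4. The share of all genes was 31.4% with every pro-B array and 27.5% with arrays 1, 3 and 5. In leukemic cells 8 of the 33 cell-cycle genes were lower and 0 higher, and 1 of the 26 replication genes was lower and 1 higher. Over all genes 7.53% were lower and 8.5% higher.

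Of the 11 genes of chromatin, transcription and repair, 8 fell in leukemic cells. Zfp354b, a zinc finger protein, read 6.48, 7.31 and 7.94 in pre-B, 4.17, 4.78 and 5.50 in pro-B, 3.83, 4.79 and 5.66 in immature B and 4.49, 5.12 and 4.02 in mature B cells. Every leukemic array (2.75, 4.09 and 6.09) lay below every pre-B array, and the difference was -3.03 (SE 0.34, 8.18-fold, limma adjusted p = 5.08e-07). The brightest of the group was Smarca4 (BRG1), the ATPase of SWI/SNF chromatin remodelling complexes, at 11.32, 11.56 and 11.75 in pre-B and 10.29, 10.54 and 10.93 in pro-B cells, with 9.67, 10.09 and 10.41 in immature and 9.31, 9.999 and 9.38 in mature B cells. Leukemic arrays read 9.46, 10.79 and 11.29, all below the lowest pre-B array and 3 above the midpoint, and Smarca4 fell by 0.95 (SE 0.20, limma adjusted p = 0.0014), with its leukemic mean at the pro-B level (position 1.5%).

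Xrcc6 (Ku70), which binds broken DNA ends in V(D)J joining, read 10.84, 11.13 and 11.59 in pre-B, 9.83, 10.01 and 10.54 in pro-B and 9.01, 9.45 and 9.60 in immature B cells, with 8.14, 8.88 and 8.63 in mature B cells. Leukemic arrays read 8.92, 10.39 and 11.57 and were lower by 0.94 (SE 0.26, limma adjusted p = 0.014). It was the single one of 12 joining and repair genes with a place among the 95, and its partner gene Xrcc5 (Ku80) was lowest in pre-B (7.97, against 8.13 to 8.33). Within the first run the fall in Xrcc6 did not pass (-0.81, adjusted p = 0.280). Hdac5, a class IIa histone deacetylase, fell by 1.81 (limma adjusted p = 0.00038) on all 16 arrays. Gfi1b, a repressor of blood lineages, fell below 6.52, its lowest pre-B value, on 12 leukemic arrays but was high on 2, up to 9.16, and did not pass the test (adjusted p = 0.072).

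Of the 6 survival and stress genes 4 fell, and in none did the leukemic mean reach the midpoint. Bcl2l1, which encodes the anti-apoptotic Bcl-xL, read 8.77, 9.34 and 9.97 in pre-B, 7.21, 7.73 and 7.97 in pro-B, 7.54, 8.04 and 8.48 in immature B and 6.42, 7.20 and 6.91 in mature B cells. Leukemic arrays read 6.50, 8.92 and 9.71. Bcl2l1 was above its midpoint on 9 of 16, and the difference of -0.72 (SE 0.33, limma adjusted p = 0.151) did not pass, while the mean over its probe sets did (-1.07, adjusted p = 0.021). The 2 other bright probe sets gave margins of 2.08 and 2.02 and differences of -1.45 and -1.70, larger than those of the probe set used. Of 18 genes of the IL-7 and STAT5 list, which holds Bcl2l1, 3 were lower and 4 higher in leukemic cells (7.53% and 8.5% of all genes).

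Ier3, an immediate early gene of stress and survival signalling, read 5.82, 7.43 and 8.35 in pre-B, 5.08, 5.55 and 6.32 in pro-B, 5.48, 6.33 and 6.80 in immature B and 3.95, 4.83 and 5.63 in mature B cells. It fell to 3.32, 4.61 and 7.62 in leukemic cells (-2.28, SE 0.42, limma adjusted p = 3.55e-04), with array 122 highest. Tifa, an adaptor of NF-kappa B signalling, fell on every leukemic array (11.86 to 12.45 in pre-B, 10.38 to 11.76 in leukemic cells). The endoplasmic reticulum genes Sec63, of protein translocation, and Herpud1, of the unfolded protein response, fell by 0.998 and 1.12 (limma adjusted p = 0.00075 and 0.00028). The other probe sets of Sec63 gave differences of -0.22, -0.74 and -0.26, with margins of 0.305, 1.01 and 0.228. That of Herpud1 gave -1.10.

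Of the 6 ubiquitin and SUMO genes, 1 fell, Wdfy3, an autophagy scaffold (-1.34, limma adjusted p = 0.017). Uchl1, a deubiquitinating enzyme abundant in neurons, read 9.72, 10.06 and 10.54 in pre-B, 6.81, 7.64 and 8.23 in pro-B, 7.82, 8.14 and 8.44 in immature B and 5.72, 6.89 and 5.85 in mature B cells. Leukemic arrays ran from 3.99 on array 122 through a median of 8.58 to 10.75 on array 270. On 7 arrays Uchl1 was above its midpoint, and on 10 it was below every pre-B array. The difference of -1.89 (SE 0.71) had a limma adjusted p of 0.072, and of 0.045 without array 270, 0.049 without the dimmest genes and 0.020 with all 39 arrays in 1 fit. It was -2.41 within the first accession run (adjusted p = 0.165) and -0.16 within the second (adjusted p = 0.817), where the leukemic arrays read 9.20 to 10.75. Otub2, another deubiquitinating enzyme, read 9.36, 9.73 and 10.16 in pre-B, 6.62, 7.70 and 9.09 in pro-B, 7.57, 8.20 and 8.71 in immature B and 6.21, 6.94 and 6.61 in mature B cells, against 4.81, 9.25 and 9.90 in leukemic cells. Arrays 122 (4.81) and 117 (5.32) were far below the others, which began at 8.37, and the difference of -1.05 (limma adjusted p = 0.185) was -0.46 without arrays 116, 117 and 122.

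Of the 9 adhesion genes 4 fell, and the leukemic mean of the other 5 lay at or above the midpoint. Cldn10, a tight junction claudin, had the largest leukemic spread of the 95 genes (SD 2.26). It read 7.54, 7.87 and 8.23 in pre-B, 3.78, 5.04 and 6.04 in pro-B, 6.05, 6.33 and 6.47 in immature B and 6.67, 5.61 and 6.21 in mature B cells, and 3.86, 7.75 and 10.09 in leukemic cells. On 7 leukemic arrays Cldn10 lay below every pre-B array and on 7 above every one. Pllp, plasmolipin, a membrane protein of myelin and epithelia, read 5.46, 6.02 and 6.36 in pre-B, 4.11, 4.60 and 5.05 in pro-B, 4.66, 4.97 and 5.45 in immature and 4.30, 5.36 and 4.80 in mature B cells, and 4.64, 6.34 and 8.29 in leukemic cells. It was above its midpoint on 12 leukemic arrays and higher than in pro-B cells by 1.77. The laminin receptor subunit Itga6 read 9.66, 10.07 and 10.33 in pre-B and 8.13, 10.23 and 11.71 in leukemic cells, a difference of 0.02. Amigo1, Arvcf, Jam3 and Omd fell by 0.62 to 1.42.

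Of the 10 metabolism genes 5 fell. Acyp2, an acylphosphatase, read 7.99, 8.07 and 8.65 in pre-B, 6.07, 6.60 and 6.87 in pro-B, 6.77, 7.43 and 7.78 in immature B and 5.39, 6.29 and 6.16 in mature B cells. All leukemic arrays (4.67, 5.48 and 7.40) lay below every pre-B array and the difference was -2.44 (SE 0.30, limma adjusted p = 2.02e-06). Its position of -206% was the lowest of the 95 genes. Tpmt, which methylates thiopurines, fell by 1.05, Pgls, of the pentose phosphate pathway, by 1.14, and Ddah2 by 1.13, each with a limma adjusted p under 0.001.

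Ddc, the decarboxylase that makes dopamine and serotonin, went the other way on most leukemic arrays. It read 7.95, 8.46 and 8.87 in pre-B, 6.36, 7.14 and 7.75 in pro-B, 6.87, 7.53 and 8.09 in immature B, and 4.31, 5.68 and 3.82 in mature B cells. Leukemic arrays read 4.31, 9.75 and 11.31, with 10 above every pre-B array and 4 below. The difference was 0.70 (SE 0.62, limma adjusted p = 0.532), was 1.30 without arrays 116, 117 and 122 (adjusted p = 0.030) and turned to -0.44 with the neutrophil and monocyte mean as a covariate (adjusted p = 0.693). Within the second run it was 0.13 (adjusted p = 0.942).

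Among the 6 secreted enzymes and matrix genes, Prg3 and Adamts7 fell. Prg3, the homologue of eosinophil major basic protein, had the largest fall of the 95 genes. It read 7.89, 8.38 and 8.94 in pre-B, 5.16, 6.14 and 7.05 in pro-B, 6.10, 6.63 and 7.12 in immature B and 6.80, 4.32 and 4.53 in mature B cells. Leukemic arrays read 2.32, 4.39 and 6.80, all below the lowest pre-B array, and the difference was -3.95 (SE 0.48, 15.4-fold, limma adjusted p = 1.31e-06). Prg3 was also lower than in pro-B cells, by 1.72.

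Other eosinophil granule genes had another pattern over the normal stages. Prg2, the major basic protein itself, averaged 7.44 in pre-B and 8.63 to 9.57 in the other stages, and Epx, eosinophil peroxidase, 5.63 and 6.34 to 7.45. Pre-B was the highest stage for 1 of the 14 genes of the eosinophil, basophil and mast cell list, Prg3, and the list mean was lowest there among normal stages (5.01, against 5.42 to 5.92). In leukemic cells Prg2 and Epx were lower than in pre-B as well (by 2.66 and 1.69), and the list mean ranged from 3.80 to 5.58.

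Adamts7, a metalloprotease of cartilage and vessel matrix, read 5.58, 6.13 and 6.93 in pre-B and 4.05, 4.64 and 5.95 in leukemic cells, with 4.07, 4.50 and 4.94 in pro-B, 4.01, 4.44 and 4.73 in immature B and 4.12, 4.29 and 3.85 in mature B cells. It fell by 1.42 (SE 0.21, limma adjusted p = 1.70e-05), with 1 leukemic array inside the pre-B range. Olfml2b, an extracellular olfactomedin-domain protein, was dim and kept: it read 4.24, 5.76 and 5.94 in pre-B, 3.88, 4.38 and 5.30 in pro-B, 4.23, 4.52 and 4.86 in immature and 4.66, 4.32 and 4.71 in mature B cells, against 3.74, 5.89 and 7.62 in leukemic cells. Its difference of 0.42 (SE 0.42) had a limma adjusted p of 0.592. Outside these groups, Glcci1, a glucocorticoid-induced transcript, read 10.79, 10.99 and 11.16 in pre-B, fell to 7.15, 9.45 and 10.28 in leukemic cells (-1.76, limma adjusted p = 6.33e-05) and overlapped on no array.

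Against pro-B cells the leukemic arrays differed less. Of the 95 genes, 2 were lower (background 7.63%) and 6 higher (background 8.11%), with a median difference of 0.216 against 0.126 over all genes. The 2 were Prg3 and Cacna2d1, and the 6 were Il12a, Rapgef3, Pllp, Tnnt2, H2bc22 and Rcor2. The pro-B arrays also entered the choice of genes, and this comparison shares its leukemic arrays with the one above.

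Leukemic arrays differed from one another in how many of the genes they kept. The mean of the 95 genes was 8.28 to 8.79 on the pre-B arrays and 6.46 to 8.26 on the leukemic ones, with a median of 7.66. Array 228 was the highest, with 52 genes above the midpoint, and array 122 the lowest, with 7. Array 117 had a mean of 6.96 with 10 genes above the midpoint, while the pre-B arrays had 66 to 93. The pre-B arrays chose the genes and entered the midpoints, which favours high counts on them. On array 122 the neutrophil and monocyte mean was 9.11 and the plasmacytoid dendritic mean 8.29, each the highest of the leukemic arrays, and their part in its low values was not tested. Array 116, of the mouse without stated leukemia, had 33 genes above the midpoint, within the range of the others. Without arrays 116, 117 and 122, a setting added after seeing the data, the counts were 51 lower and 3 higher, the 3 being Tnnt2, Ddc and Fgf13. The shares of all genes in that test were not computed, so these counts have no background beside them.

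For 10 genes all 16 leukemic arrays lay below every pre-B array: Lima1, Zfp354b, Prg3, Slc12a3, Ttc7b, Tifa, Smarca4, Glcci1, Acyp2 and Hdac5. The same held for 0.799% of all genes, but the pre-B arrays also entered the choice of the 95 genes, which favours such separation. The spread over leukemic arrays exceeded that over pre-B arrays for 92 of the 95 genes (median SD 0.896 and 0.377).

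**Figure D4:**
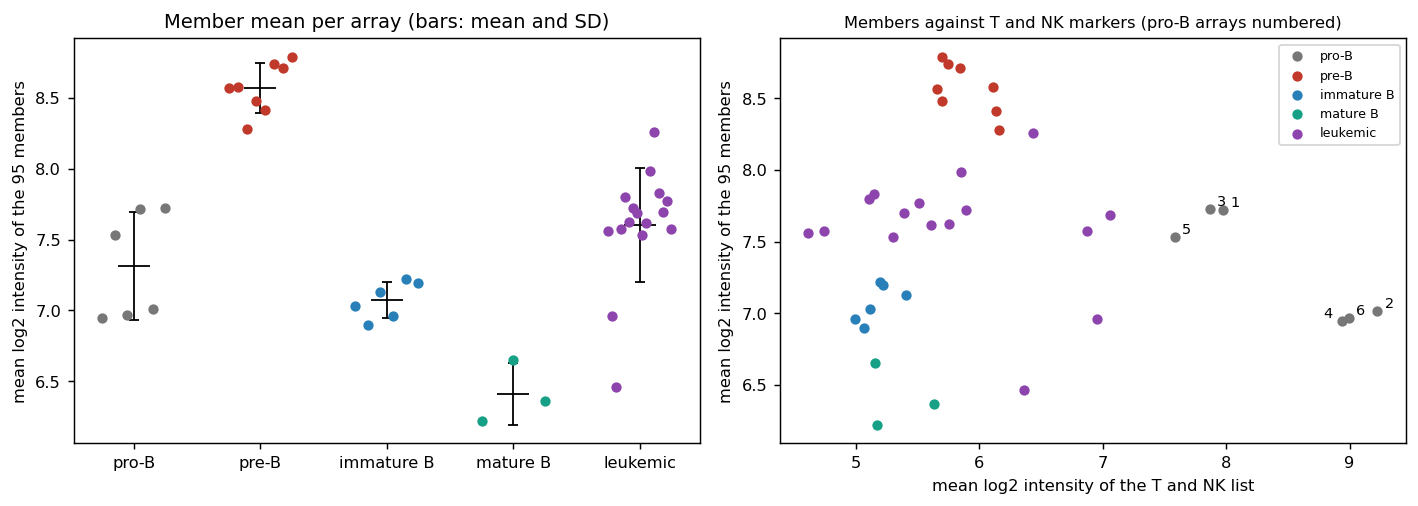
Left, mean log2 intensity of the 95 genes on each array (points) with group mean and SD. Right, the same means against the mean of the T and NK list, pro-B arrays numbered: arrays 2, 4 and 6 have the lower mean of the 95 genes and the higher T and NK mean, and leukemic array 122 has the lowest leukemic mean (6.46).

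Between leukemias with and without pIpC in their description, 0 of the 95 genes and 0 of all 12393 genes (background 0%) passed at a limma adjusted p under 0.05. At an unadjusted p under 0.05 there were 9 of the 95 genes (9.47%) and 603 of all genes (4.87%). The 9 were higher with pIpC: Tifa, Smarca4, Rab43, Carhsp1, Arvcf, Pipox, Herpud1, Ddah2 and Dnase1. The smallest adjusted p among them was 0.875, for Herpud1 (0.79, SE 0.23). Arrays 117 and 122, both without pIpC, hold the lowest means, and the 5 arrays with pIpC had 29 to 47 genes above the midpoint against 7 to 52 on the other 11.

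The choice and the test were also put on different arrays. The rule applied to the second accession run alone chose 95 genes after the same 6 were left out, 73 of them shared with the main set (76.8% of each). On the first run, which the choice did not use (3 pro-B, 4 pre-B, 3 immature B and 12 leukemic arrays), all 95 were higher in pre-B than in pro-B cells and than in immature B cells by their means. Against pro-B, 78 passed (limma adjusted p under 0.05, background 6.7%), against immature B 69 (background 5.12%) and against both 59 (background 1.35%). The probe set of each gene was still picked on all arrays. With the runs exchanged, 51 passed against pro-B. With replicate number as a block the counts were 44 against pro-B and 43 against immature B. The block rests on shared numbers alone. Numbers 5 and 6 are those that pre-B shares with the other stages in this run. Their deviations within the run correlated at 0.043 to 0.394 between stages. The shares of all genes passing with the runs exchanged or with the block were not computed.

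Leukemic cells of the first run were lower for 26 of these 95 genes (27.4%, background 3.1%), with 83 differences negative, 12 positive and a median of -0.83. Lima1 (-2.42, adjusted p = 0.00096) and Zfp354b (-2.76, adjusted p = 0.00022) were among the 26 in this limma fit. With 4 pre-B arrays the count depended on each of them: it was 14, 10, 13 and 11 without pre-B array 5, 6, 7 and 8.

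**Figure D5:**
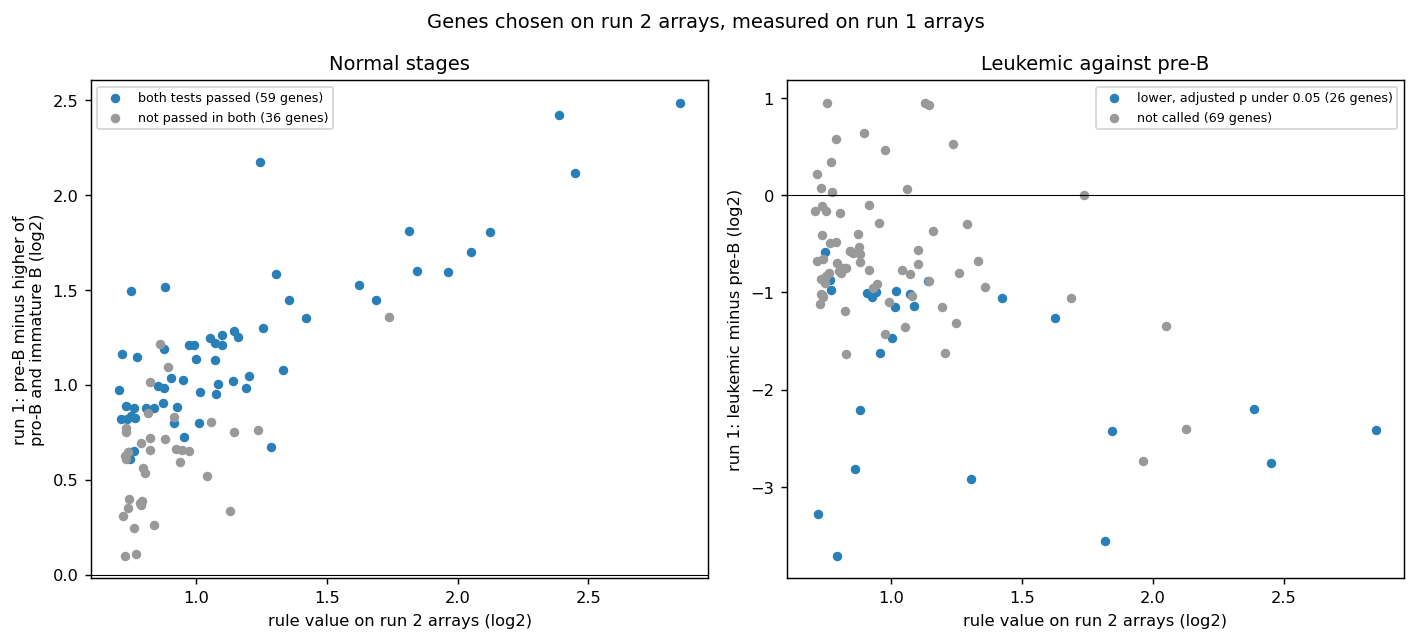
The 95 genes chosen on the second accession run, 1 point each, with their pre-B margin there (log2, x axes) and, on arrays of the first run, pre-B minus the higher of pro-B and immature B (left, log2) and leukemic minus pre-B (right, log2). All points lie above 0 on the left, with 59 blue for both tests passed, and 83 lie below 0 on the right, with 26 blue for lower.

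For 38 of the 95 genes, 64 further probe sets were on the array. The pre-B margin was above 0 in 62 of them, including all 35 that were bright, and 26 also passed the margin of the main choice. The leukemic difference had the sign of the main probe set in 62 of 64. The 2 with no pre-B margin were a dim probe set of Cdk5r1 (-0.065) and 1 of Ttc7b (-0.177). For Foxm1 the best of the others gave a margin of 0.651 and for Tnnt2 0.718.

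The 95 genes are a small part of the 12393 genes. Short lists of genes known for this stage of development would hold few of them by that share alone. Of 16 pre-B-cell receptor signalling genes and 18 genes of p53 and quiescence, none was among the 95. Pre-B was the highest stage for 0 of the 16 and 9 of the 18, against 31.4% of all genes. In leukemic cells 7 of the 16 were lower and 2 higher, and 10 of the 18 were lower and 0 higher. Over all genes 7.53% were lower and 8.5% higher. Of 26 light chain and B-lineage factors, pre-B was highest for 9, with 10 lower and 3 higher in leukemic cells. The 4 of the 95 genes on any of the lists were Xrcc6, Bcl2l1, Foxm1 and Prg3.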

How the data were processed

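Sorted mouse bone marrow cells were profiled on 39 arrays, with 20 ng of RNA amplified per array, per the labels. The deposited values were linear intensity values per probe set. RMA is the tool that the submitters' processing notes name, without a version or whether the arrays were normalized together. Values were taken to log2 here. Of 22690 probe sets, 64 controls, 691 with several symbols and 1555 with none were left out, and the 20380 others gave 12393 genes, each read from the probe set that was brightest on average across arrays. Names are from the platform annotation. The members, role groups and gene lists were chosen with earlier results of these data known.

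Groups were compared with limma 3.58.1 in R 4.3.3 (lmFit, eBayes with intensity trend), and Benjamini-Hochberg adjusted p-values over all genes were called under 0.05. The scripts were tested on simulated data. Arrays carry no depth, and their number limits precision. Named genes were the 12 widest margins, the 10 largest falls and 5 largest rises called, the 6 highest uncalled positions, the 4 largest leukemic SDs, the 3 genes on each side of the edge and every gene on a fixed list, with others as examples of a role. Alternatives were other normalization, filters, probe set rules, accession runs, leaving out arrays and a replicate block.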

Additional observations from a re-analysis of the deposited data

Results flagged for a closer look

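In 120 groups of 4 to 10 arrays checked for the named genes, 3 single arrays lay far from the rest of their group, where chance gives about 1 in 20 groups. Fmn2 read 8.507 on immature B array 4, against 6.815 to 7.233 on the other immature B arrays. Olfml2b read 4.238 on pre-B array 1, against 5.14 to 5.94 on the other pre-B arrays. H2bc22 read 5.942 on pro-B array 2, against 6.321 to 6.521 on the other pro-B arrays.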

How the results depend on the processing

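Of the 95 genes, 73 to 87 were also chosen under quantile normalization, without the dimmest 40% of genes, with probe set means, medians of arrays, the second accession run alone or a replicate block (82), 79 to 95 without any 1 normal array, and 59 with pro-B arrays 1, 3 and 5 alone, a setting chosen after seeing the data. The count lower in leukemic cells was 40 to 58 except within the first run (28), and 45 to 55 without any 1 array. The setting without probe sets ending in _x_at, _s_at or _a_at is not in these ranges, the membership counts or the count higher. In it H1f2 and Foxm1 lost their call and Rapgef3 gained one (1.01, limma adjusted p = 0.047). The count higher was 0 within the first run and with the neutrophil and monocyte covariate, 3 without leukemic arrays 116, 117 and 122 (both added after seeing the data), and 0 to 2 without any 1 array. Below a line at 25% or 75% of the way to the pre-B mean lay 59 and 83 leukemic means, and 66 to 76 below the midpoint without any 1 array. No pIpC alternative called any of the 95 genes. On the arrays not used for the choice, 51 were higher against pro-B with the runs exchanged and 44 (pro-B) and 43 (immature B) with the replicate block. Without pro-B arrays 2, 4 and 6 the count was 24, but this left 1 pro-B array in the first run, assumed to vary like the other groups, and changed the choice and the test together, so it does not measure what those arrays contribute. Leaving out 1 array gave 59 to 84 against pro-B, 50 to 76 against immature B and 10 to 33 lower in leukemic cells. Same-numbered arrays did not pair throughout: the 18 correlations of their deviations ran from -0.744 to 0.475, with 13 above 0.1. Taken within runs they ran from -0.684 to 0.394, with 7 above 0.1. The lowest joined pre-B array 4, of the second run, to an array of the first. Those of numbers 5 and 6, all of the first run, were positive. The block rests on shared numbers alone. Of 29 named genes, 13 changed call under some alternative. Of the 51 genes called lower or higher, the direction turned for 1, Gfra1, within the second run (0.12). Over the alternatives of each gene, the limma adjusted p of the leukemic difference ran from 3.44e-07 to 0.331 for Tnnt2, 7e-05 to 0.0691 for Fmn2, 0.0014 to 0.280 for Xrcc6, 0.018 to 0.288 for Foxm1, 3.51e-04 to 0.084 for H3c4, 1.79e-08 to 0.248 for H1f2, 0.0201 to 0.817 for Uchl1, 0.0304 to 0.942 for Ddc, 0.0059 to 0.802 for Fgf13, 0.0404 to 0.918 for Rapgef3 and 0.0212 to 0.319 for Bcl2l1.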
